A study of Saccharomyces cerevisiae with 7 samples.

Results

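The nuclear genes of the yeast respiratory chain and ATP synthase were followed across 7 strains of *Saccharomyces cerevisiae*, 6 that overexpressed a form of green fluorescent protein (GFP) and 1 that carried the empty vector. The members were 38 genes, chosen by symbol as the nuclear-encoded subunits of 6 units of the chain, out of the 6225 systematic names on the array. They were 3 NADH dehydrogenases, 4 subunits of succinate dehydrogenase, 9 of the bc1 complex, the cytochrome c gene *CYC1*, 8 subunits of cytochrome c oxidase and 13 of ATP synthase. The rule was a list of symbols and held no measured value, but it was written with earlier results of these data known.

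The study asked what limits the overexpression of GFPs that carry localization or degradation signals, and measured the transcripts of strains in which such GFPs slow growth. All strains were BY4741, a haploid laboratory strain with deletions in *HIS3*, *LEU2*, *MET15* and *URA3*, and carried the plasmid pTOW40836 with *URA3* and a weak *LEU2* allele, whose copy number varies. Cells were grown to log phase in SC–Ura, a synthetic medium without uracil. The MTS-GFP strain expressed GFP with the mitochondrial targeting sequence of the ribosomal protein Mrps12 from the *PYK1* promoter, and NES-GFP carried a nuclear export signal and was driven by the *HXT7* promoter. GFPm3, a mutant that misfolds, and SS-GFP, which carries the secretion signal of a trypanosome procyclin, were also driven by the *PYK1* promoter. GFP-Deg, which carries the degradation signal of mouse ornithine decarboxylase, and unmodified GFP were driven by the *TDH3* promoter. Promoter and GFP form therefore change together in several comparisons. Each strain was measured on 1 array, so the values have no replicate error, no difference between strains could be tested, and the SDs below cover only the 7 spots of a probe on an array.

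The chain passes electrons to oxygen in the inner mitochondrial membrane, and the proton gradient that it builds drives ATP synthase. Budding yeast has no proton-pumping complex I and oxidizes NADH through single-protein dehydrogenases instead. The bc1 complex, cytochrome c oxidase and ATP synthase are each built from subunits of both genomes, and many of the nuclear genes are under glucose repression and are activated by the Hap2/3/4/5 complex.

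The share of yeast spots well above background ran between 97.0% (SS-GFP) and 98.9% (GFP-Deg), with 0 saturated spots. MTS-GFP, NES-GFP and GFPm3 shared a slide with the empty vector, and SS-GFP and GFP-Deg shared the other with GFP. The deleted genes *HIS3* and *MET15* failed to rise well above background on all 7 arrays, and the plasmid markers *URA3* and *LEU2* were detected on each. All 38 members were well above background on all 7 arrays, each with 1 probe and 6 to 7 spots in use, and the SD of their spots lay between 0.017 and 0.118 on the log2 scale, with a median of 0.052. Levels were scaled to the 75th percentile of each array, and a deviation means the log2 level on an array minus the mean of the same gene over the 7 arrays.

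Most members varied little. Of the 266 member values, 257 lay within 1.5-fold of the gene's mean. Most values of all genes did too, since at most 9.46% were past 1.5-fold in 1 direction on any array (GFP-Deg, upward). The distance between the highest and the lowest array had a median of 0.63 over the members and 0.76 over all genes (log2). It exceeded 2-fold for 4 of the 38 members (*NDE2*, *CYC1*, *SDH1* and *NDI1*), against 31.8% of all genes, and was under 0.5 for 12 members, against 23.1% of all genes. These 12 were *ATP3*, *ATP4*, *ATP5*, *ATP7*, *ATP14*, *ATP16*, *ATP17*, *COR1*, *COX7*, *COX9*, *COX12* and *COX13*.

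**Figure D1:**
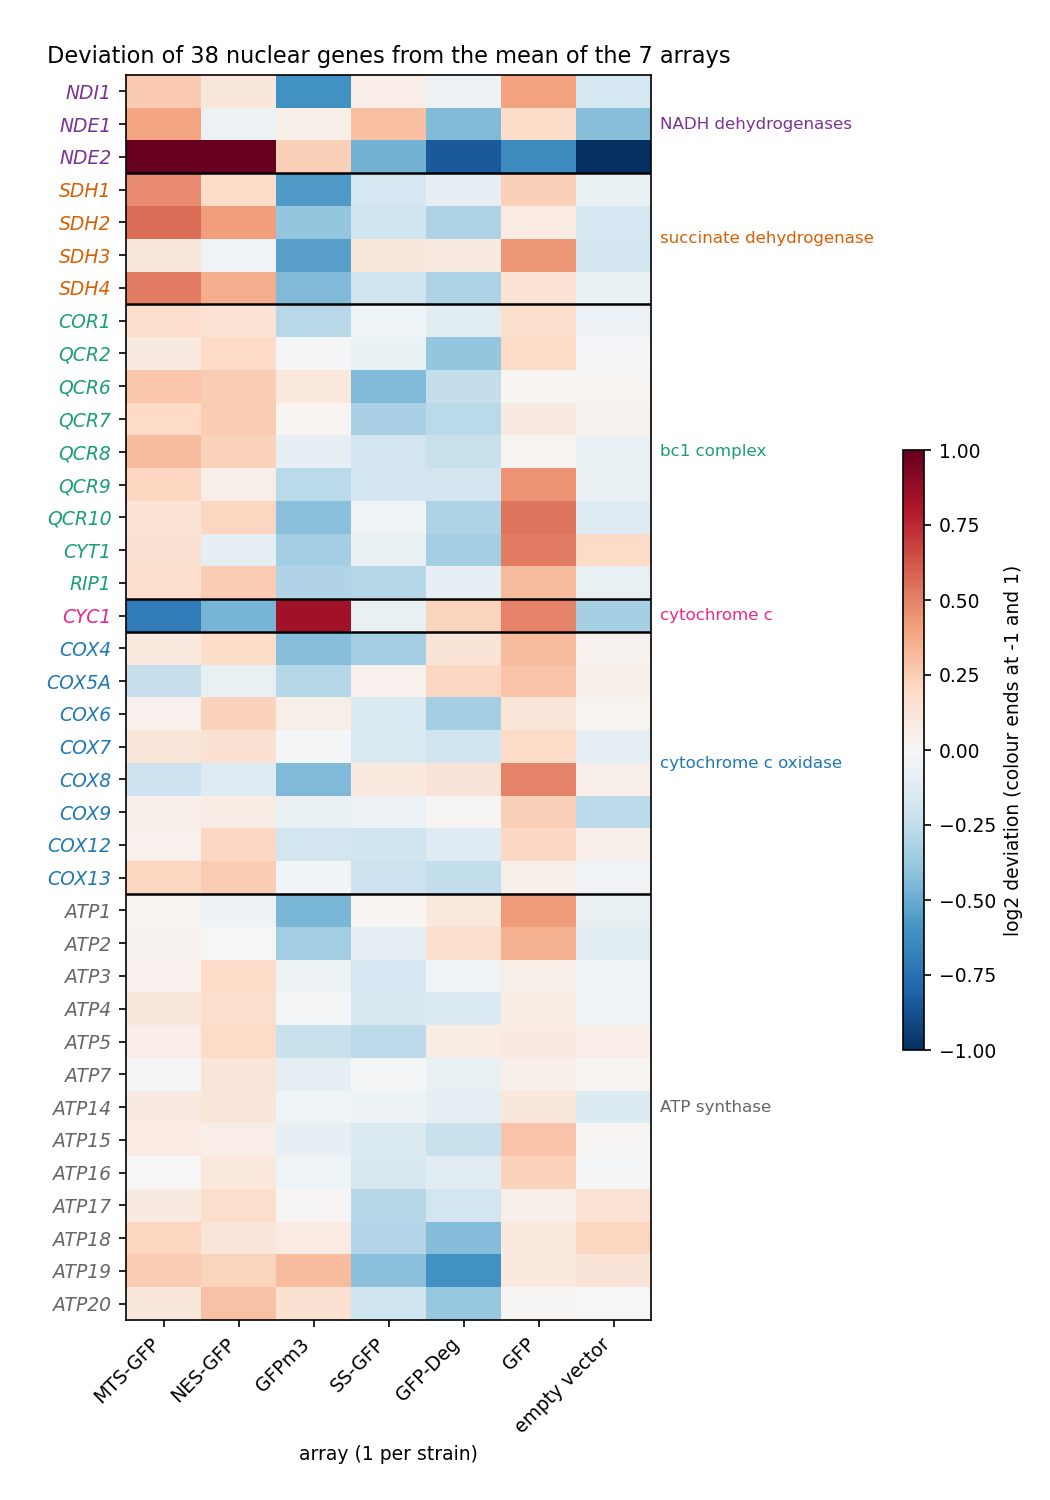
Heat map of the log2 deviation of each of the 38 members (down the page, by complex) from its mean over the 7 arrays (across, 1 array per strain). Red is above and blue below the mean, with the colour ending at deviations of -1 and 1. *NDE2* and *CYC1* stand apart from the paler rows of ATP synthase, and the GFP column is red for 37 of the 38 genes.

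The median deviation of the 38 members was 0.11 in MTS-GFP, 0.18 in NES-GFP, -0.08 in GFPm3, -0.16 in SS-GFP, -0.17 in GFP-Deg, 0.19 in GFP and -0.03 in the empty vector. The same medians over all genes lay between -0.05 and 0.04. At least 28 of the 38 members lay on 1 side of their mean in every array but the empty vector. The number of members above their mean was 33 in MTS-GFP, 31 in NES-GFP, 10 in GFPm3, 6 in SS-GFP, 9 in GFP-Deg, 37 in GFP and 15 in the empty vector. Of all genes, 44.1% lay above their mean in MTS-GFP, 44.0% in NES-GFP, 54.7% in GFPm3, 46.9% in SS-GFP, 55.2% in GFP-Deg, 53.8% in GFP and 48.6% in the empty vector. Without *NDE2* and *CYC1*, the median of the other 36 differed from that of the 38 by at most 0.01 in each array.

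GFP held the highest value for 16 members, where it held the highest value for 14.5% of all genes, and NES-GFP for 12 members, against 3.49% of all genes. MTS-GFP was highest for 7 members, against 16.7% of all genes, GFPm3 for 2, against 26.6%, and the empty vector for *ATP18* only, against 7.33%. The lowest value fell in GFPm3 for 15 members (15.6% of all genes), in GFP-Deg for 11 (16.3%) and in SS-GFP for 8 (15.9%). It fell in the empty vector for *NDE2*, *COX9* and *ATP14* (10.7% of all genes) and in MTS-GFP for *CYC1* (25.1%). Some of these ranks rest on gaps below the SD of the spots. *COX12* stood at 0.209 in NES-GFP and 0.205 in GFP, with spot SDs of 0.073 and 0.063. Over the normalizations *ATP18* ran between 0.15 and 0.22 in the empty vector and between 0.21 and 0.37 in MTS-GFP. The ranks also mix arrays of both slides.

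Only *NDE2* deviated more than 2-fold from its mean in any array. It was past 2-fold upward in MTS-GFP and NES-GFP, where 2.76% and 1.16% of all genes were, and past 2-fold downward in the empty vector, where 1.46% were. After normexp normalization its deviation was 0.99 in NES-GFP and -0.85 in the empty vector, and after quantile normalization -0.97 in the empty vector, so that of the 3 calls only that in MTS-GFP (1.48 to 1.64 over the normalizations) held throughout them. At 1.5-fold upward, *NDE2* was counted in MTS-GFP (6.25% of all genes) and NES-GFP (2.92%), and *CYC1* in GFPm3 (6.01%). At 1.5-fold downward, *CYC1* was counted in MTS-GFP (7.74% of all genes), *NDI1* in GFPm3 (6.15%), *NDE2* and *ATP19* in GFP-Deg (4.24%), and *NDE2* in GFP (2.92%) and the empty vector (5.11%). Under the scaling used, the members past 1.5-fold were thus no larger a share than that of all genes, apart from GFP-Deg, where 2 of the 38 were. Under other normalizations *SDH2* and *SDH4* reached 0.64 and 0.70 in MTS-GFP and *QCR10* 0.59 in GFP, past 1.5-fold. *NDE2* in GFP came to -0.56, under 1.5-fold. The deviation of *ATP19* in GFP-Deg ran between -0.64 and -0.57 over the normalizations, on both sides of 1.5-fold.

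The NADH dehydrogenases differed most among themselves. *NDE2* and *NDE1* encode the external enzymes, which oxidize cytosolic NADH at the outer face of the inner membrane, and *NDI1* the internal enzyme, which oxidizes NADH of the matrix. The processed signal of the *NDE2* probe was 1813 in MTS-GFP, 1529 in NES-GFP, 764 in GFPm3, 379 in SS-GFP, 270 in GFP-Deg, 292 in GFP and 250 in the empty vector, before scaling. After scaling, its deviations in the same order were 1.64, 1.16, 0.24, -0.47, -0.84, -0.63 and -1.10. The 3 highest values were thus on 3 of the 4 arrays of the first slide, but the lowest, the empty vector, was on that slide as well. Set against the empty vector on their own slide, *NDE2* was higher by 2.74 in MTS-GFP, 2.27 in NES-GFP and 1.34 in GFPm3 on the log2 scale, all past 2-fold, where 5.77%, 3.31% and 3.37% of all genes were. The difference in GFPm3 was 0.90 after normexp normalization, under 2-fold, while those in MTS-GFP and NES-GFP were at least 2.33 and 1.84 under each normalization. Against GFP, it differed by 0.16 in SS-GFP and -0.21 in GFP-Deg.

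*NDE1* deviated by 0.40 in MTS-GFP, -0.06 in NES-GFP, 0.05 in GFPm3, 0.30 in SS-GFP, -0.44 in GFP-Deg, 0.18 in GFP and -0.43 in the empty vector. *NDI1* deviated by 0.26 in MTS-GFP, 0.11 in NES-GFP, -0.61 in GFPm3, 0.07 in SS-GFP, -0.06 in GFP-Deg, 0.40 in GFP and -0.17 in the empty vector. The external and internal enzymes thus went opposite ways in GFPm3, where *NDE2* and *NDE1* were 1.34 and 0.48 above the empty vector and *NDI1* was 0.43 below it (a difference of -0.43). In MTS-GFP all 3 genes were above the empty vector, *NDE1* by 0.83 and *NDI1* by 0.43. In GFP-Deg all 3 were below GFP, by differences of -0.63 for *NDE1*, -0.46 for *NDI1* and -0.21 for *NDE2*.

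Succinate dehydrogenase, which links the citrate cycle to the ubiquinone pool, was, after the single gene *CYC1*, the unit whose median varied most over the arrays. *SDH1* encodes the flavoprotein that holds the catalytic site, *SDH2* the iron-sulfur subunit, and *SDH3* and *SDH4* the membrane anchor. The median deviation of the 4 genes was 0.49 in MTS-GFP, 0.27 in NES-GFP, -0.49 in GFPm3, -0.19 in SS-GFP, -0.20 in GFP-Deg, 0.19 in GFP and -0.12 in the empty vector. All 4 were above their mean in MTS-GFP and in GFP, and all 4 were at their lowest in GFPm3.

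*SDH1*, the widest of the 4, deviated by 0.47 in MTS-GFP, 0.18 in NES-GFP, -0.57 in GFPm3, -0.17 in SS-GFP, -0.09 in GFP-Deg, 0.24 in GFP and -0.06 in the empty vector. *SDH3* deviated by 0.11 in MTS-GFP, -0.03 in NES-GFP, -0.54 in GFPm3, 0.12 in SS-GFP, 0.09 in GFP-Deg, 0.44 in GFP and -0.19 in the empty vector. It was highest in GFP, whereas the other 3 genes were highest in MTS-GFP. *SDH2*, with the narrowest range of the complex, deviated by 0.56 in MTS-GFP, 0.42 in NES-GFP, -0.39 in GFPm3, -0.20 in SS-GFP, -0.31 in GFP-Deg, 0.09 in GFP and -0.17 in the empty vector. *SDH4* reached 0.51 in MTS-GFP and -0.44 in GFPm3, close to *SDH2* on both arrays.

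On their shared slide, the 4 genes were above the empty vector by 0.30 (*SDH3*) to 0.73 (*SDH2*) in MTS-GFP and by 0.15 (*SDH3*) to 0.59 (*SDH2*) in NES-GFP. In GFPm3 their differences from the empty vector ran between -0.50 (*SDH1*) and -0.21 (*SDH2*). The median of the complex in GFPm3 was smaller in size after quantile normalization, at -0.38.

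**Figure D2:**
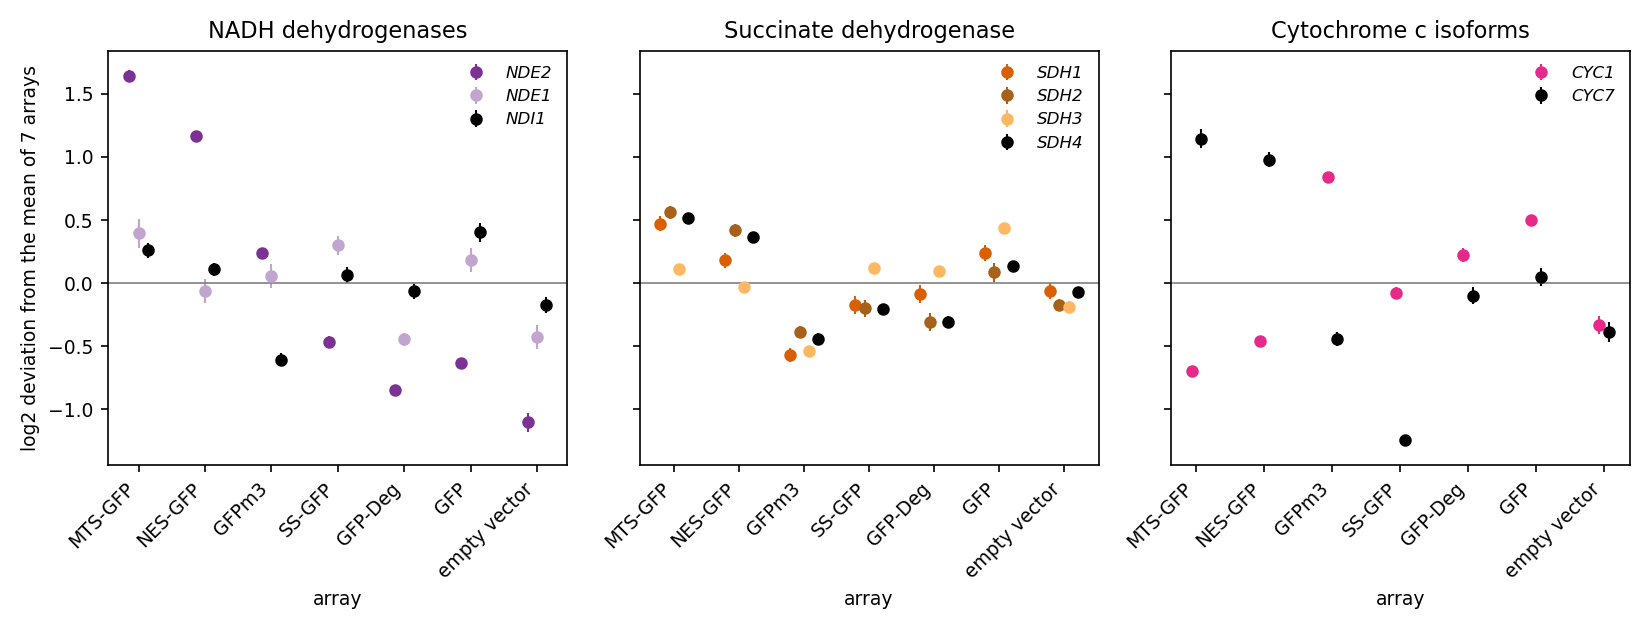
Log2 deviation from the mean of the 7 arrays (y axis) of the 3 NADH dehydrogenase genes, the 4 succinate dehydrogenase genes and the 2 cytochrome c genes on each array (x axis). Points are means over the spots of a probe and bars are the SD of those spots, which covers measurement on an array only. *NDE2* spans -1.10 in the empty vector to 1.64 in MTS-GFP, the succinate dehydrogenase genes are all at -0.39 or lower in GFPm3, and *CYC1* and *CYC7* lie on opposite sides of their means in MTS-GFP, NES-GFP and GFPm3.

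The bc1 complex passes electrons between ubiquinol and cytochrome c. Its median deviation over the 9 nuclear genes was 0.17 in MTS-GFP, 0.22 in NES-GFP, -0.27 in GFPm3, -0.19 in SS-GFP, -0.24 in GFP-Deg, 0.19 in GFP and -0.06 in the empty vector. All 9 genes were above their mean in MTS-GFP and in GFP, and all 9 were below it in SS-GFP and in GFP-Deg. *CYT1*, which encodes the cytochrome c1 subunit, deviated by 0.15 in MTS-GFP, -0.10 in NES-GFP, -0.34 in GFPm3, -0.08 in SS-GFP, -0.34 in GFP-Deg, 0.51 in GFP and 0.19 in the empty vector. *QCR10*, a small subunit, deviated by 0.14 in MTS-GFP, 0.22 in NES-GFP, -0.41 in GFPm3, -0.04 in SS-GFP, -0.31 in GFP-Deg, 0.54 in GFP and -0.13 in the empty vector. Both were highest in GFP. *COR1*, a core subunit and the steadiest gene of the complex, deviated by 0.17 in MTS-GFP, 0.13 in NES-GFP, -0.28 in GFPm3, -0.04 in SS-GFP, -0.10 in GFP-Deg, 0.18 in GFP and -0.06 in the empty vector. *QCR6*, *QCR7* and *QCR8* were higher in MTS-GFP (0.20 to 0.31) and NES-GFP (0.23 to 0.25) than in GFP (0.02 to 0.09). The Rieske iron-sulfur protein gene *RIP1* and *QCR9* were highest in GFP, at 0.32 and 0.45, and *QCR2* in NES-GFP, at 0.20.

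*CYC1*, which encodes the main aerobic form of cytochrome c, lay on the opposite side of its mean to most members in MTS-GFP, NES-GFP, GFPm3 and GFP-Deg, and on the same side as most in GFP, the empty vector and SS-GFP. Its signal was 2007 in MTS-GFP, 2773 in NES-GFP, 6483 in GFPm3, 2787 in SS-GFP, 3160 in GFP-Deg, 3569 in GFP and 2389 in the empty vector. After scaling, its deviations in the same order were -0.70, -0.46, 0.84, -0.08, 0.22, 0.50 and -0.33. *CYC1* was thus lowest in MTS-GFP, where 33 members were above their mean, and highest in GFPm3, where 28 members were below theirs. Its difference from the empty vector was 1.17 in GFPm3, past 2-fold, -0.37 in MTS-GFP and -0.13 in NES-GFP. Among the members, only *CYC1* and *NDE2* were more than 2-fold higher in GFPm3 than in the empty vector, against 3.37% of all genes. The difference of *CYC1* was between 1.14 and 1.25 over the normalizations, whereas that of *NDE2* was past 2-fold in all but normexp normalization.

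Cytochrome c oxidase reduces oxygen to water. The median deviation of its 8 nuclear genes was 0.05 in MTS-GFP, 0.17 in NES-GFP, -0.13 in GFPm3, -0.15 in SS-GFP, -0.06 in GFP-Deg, 0.22 in GFP and 0.03 in the empty vector. All 8 were above their mean in GFP. *COX8* deviated by -0.20 in MTS-GFP, -0.13 in NES-GFP, -0.44 in GFPm3, 0.09 in SS-GFP, 0.13 in GFP-Deg, 0.50 in GFP and 0.05 in the empty vector. *COX4* deviated by 0.10 in MTS-GFP, 0.18 in NES-GFP, -0.42 in GFPm3, -0.34 in SS-GFP, 0.13 in GFP-Deg, 0.32 in GFP and 0.04 in the empty vector. Both were lowest in GFPm3 and highest in GFP. *COX7* had the narrowest range of the complex, with 0.12 in MTS-GFP, 0.15 in NES-GFP, -0.02 in GFPm3, -0.15 in SS-GFP, -0.20 in GFP-Deg, 0.19 in GFP and -0.09 in the empty vector. *COX5A*, the aerobic form of subunit 5, was, like *COX8*, below its mean in MTS-GFP (-0.23) and NES-GFP (-0.07) and above it in GFP-Deg (0.20), while the other 6 genes of the complex were above their mean in both MTS-GFP and NES-GFP.

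The 13 genes of ATP synthase varied least. Their median deviation was 0.08 in MTS-GFP, 0.12 in NES-GFP, -0.04 in GFPm3, -0.16 in SS-GFP, -0.11 in GFP-Deg, 0.09 in GFP and 0.01 in the empty vector. All 13 were above their mean in GFP, and 12 were in NES-GFP. *ATP7*, a subunit of the peripheral stalk, had the narrowest range of all 38 members, 0.22, with -0.01 in MTS-GFP, 0.12 in NES-GFP, -0.10 in GFPm3, -0.01 in SS-GFP, -0.07 in GFP-Deg, 0.05 in GFP and 0.02 in the empty vector.

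The widest member of the complex was *ATP19*, the gene of a small subunit of the membrane part, with 0.25 in MTS-GFP, 0.23 in NES-GFP, 0.31 in GFPm3, -0.42 in SS-GFP, -0.60 in GFP-Deg, 0.09 in GFP and 0.13 in the empty vector. *ATP18* and *ATP20*, which also encode small subunits of the membrane part, were low in SS-GFP (-0.30 and -0.20) and GFP-Deg (-0.43 and -0.38). *ATP1*, the gene of the alpha subunit of the catalytic head, deviated by 0.02 in MTS-GFP, -0.05 in NES-GFP, -0.46 in GFPm3, 0.02 in SS-GFP, 0.11 in GFP-Deg, 0.42 in GFP and -0.07 in the empty vector. *ATP2*, the gene of the beta subunit, followed a similar course, with -0.35 in GFPm3, 0.16 in GFP-Deg and 0.35 in GFP. Both depended on the normalization. *ATP1* ran between 0.02 and 0.39 in MTS-GFP, -0.05 and 0.21 in NES-GFP, -0.10 and 0.11 in GFP-Deg, and 0.20 and 0.42 in GFP. *ATP2* ran between 0.03 and 0.41 in MTS-GFP, -0.05 and 0.16 in GFP-Deg, and 0.13 and 0.35 in GFP. The other genes of the F1 part (the head with its central stalk), *ATP3*, *ATP15* and *ATP16*, were below their means in GFP-Deg, at -0.04, -0.22 and -0.11. Over the sectors as a whole, the median of the 5 F1 genes was -0.08 in GFPm3, -0.04 in GFP-Deg and 0.29 in GFP. That of the 8 peripheral stalk and membrane genes was -0.00 in GFPm3, -0.17 in GFP-Deg and 0.08 in GFP. Both sector medians were thus below 0 in GFP-Deg and above it in GFP. In GFPm3 the F1 median was below 0, while the peripheral stalk and membrane median was near 0 and has no settled sign. There, *ATP4* ran between -0.02 and 0.06 and *ATP7* between -0.10 and 0.04 over the normalizations.

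The comparison within a slide removes any shift between the slides. It sets MTS-GFP, NES-GFP and GFPm3 against the empty vector, and SS-GFP and GFP-Deg against GFP. Comparisons that share the empty vector or GFP array share that array's error, so their likeness is not independent.

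In MTS-GFP the members had a median difference of 0.14 from the empty vector, with 29 of 38 above and 9 below, while the median over all genes was -0.03 and 52.8% of all genes were below. Over the normalizations the member median ran between 0.14 and 0.27, with 3 to 9 members below. Past 1.5-fold upward were *NDE2* (2.74), *NDE1* (0.83) and *SDH2* (0.73), where 10.8% of all genes were, and no member was past 1.5-fold downward, where 12.1% of all genes were. In NES-GFP the median difference was 0.20, with 5 of 38 below, against a median of -0.02 and 52.6% below over all genes. That member median ran between 0.20 and 0.32 over the normalizations, with 3 to 5 members below. *NDE2* (2.27) and *SDH2* (0.59) were past 1.5-fold upward, where 7.76% of all genes were. The 5 members below the empty vector in NES-GFP were *CYT1* (-0.28), *COX8* (-0.18), *CYC1* (-0.13), *COX5A* (-0.12) and *ATP18* (-0.10). These shifts are small. Under the scaling used, the shares of members past 1.5-fold were close to or below those of all genes. More members passed 1.5-fold upward under other normalizations. In MTS-GFP these were *SDH1* (up to 0.69), *SDH4* (0.84), *QCR8* (0.59) and *ATP2* (0.60), and in NES-GFP *SDH4* (0.63). The shares of all genes under those normalizations were not computed.

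In GFPm3 the members had a median difference of -0.12 from the empty vector, with 26 of 38 below, against 0.06 and 44.1% below over all genes. This median was -0.0033 after quantile normalization, 0.010 after loess normalization and 0.15 without scaling between arrays, so the direction for the members as a whole rests on the scaling. *NDE2* and *CYC1* were past 2-fold upward under the scaling used. No member was past 1.5-fold downward, where 6.91% of all genes were.

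On the other slide, SS-GFP had a median difference of -0.34 from GFP, with 36 of the 38 members below GFP, against a median of -0.07 and 60.5% below over all genes. The 2 members above were *NDE2* (0.16) and *NDE1* (0.12). *COX4* (-0.66), *QCR9* (-0.64), *RIP1* (-0.60) and *CYT1* (-0.59) were past 1.5-fold downward, where 4.34% of all genes were. Over the normalizations *RIP1* ran between -0.60 and -0.57 and *CYT1* between -0.60 and -0.55, so that these 2 of the 4 calls depend on the normalization. GFP-Deg also had a median difference of -0.34 from GFP, with all 38 members below GFP, against a median of -0.00 and 50.3% below over all genes. *CYT1* (-0.85), *QCR10* (-0.84), *ATP19* (-0.70), *NDE1* (-0.63) and *QCR9* (-0.63) were past 1.5-fold downward, where 3.36% of all genes were. No member was past 2-fold in either comparison.

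By complex, the median differences of SS-GFP from GFP were -0.33 for succinate dehydrogenase, -0.46 for the bc1 complex, -0.32 for cytochrome c oxidase and -0.34 for ATP synthase. Those of GFP-Deg from GFP were -0.37, -0.40, -0.32 and -0.24 in the same order. Both comparisons rest on the single GFP array. Across quantile, loess and normexp normalization and the scaling used, the member median stayed between -0.34 and -0.33 in both comparisons, and the numbers below GFP stayed at 36 and 38. Without scaling between arrays, 32 and 35 members were below GFP.

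**Figure D3:**
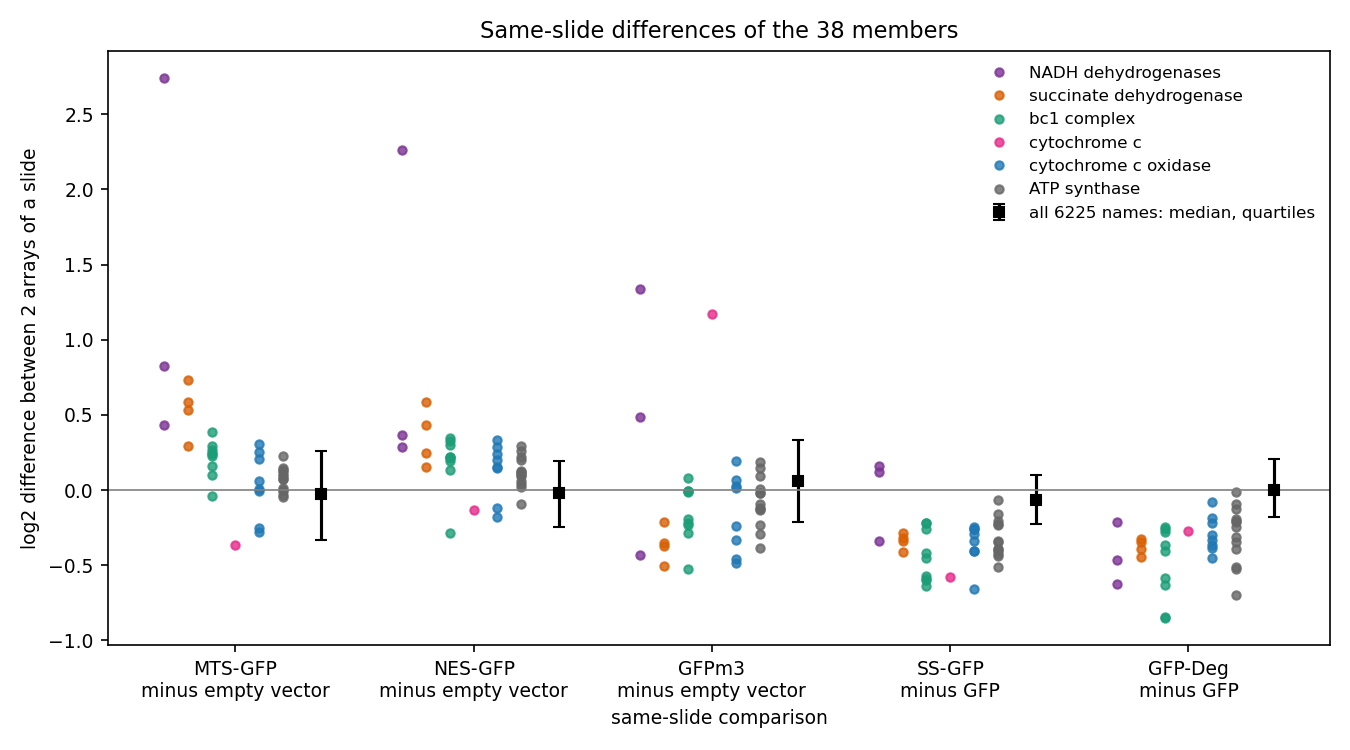
Log2 difference (y axis) between a strain and the empty vector or GFP array of its own slide (x axis, 5 comparisons) for each of the 38 members, coloured by complex. Black squares and bars are the median and quartiles over all 6225 names. Nearly all members lie below 0 in SS-GFP minus GFP and in GFP-Deg minus GFP, and *NDE2* is the highest point in the 3 comparisons with the empty vector.

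Between the slides, GFP had a median difference of 0.25 from the empty vector over the members, with 34 of 38 above, against 53.6% above over all genes. SS-GFP and GFP-Deg had median differences of -0.12 and -0.10 from the empty vector. Slide and construct cannot be told apart in these 3 comparisons.

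In MTS-GFP, the partner subunits that the mitochondrial genome encodes were low, while most nuclear members were slightly above their mean. The 7 genes were *COB*, the cytochrome b of the bc1 complex, *COX1*, *COX2* and *COX3*, the core of cytochrome c oxidase, and *ATP6*, *ATP8* and *OLI1* of the membrane part of ATP synthase. Their median deviation was -1.08 in MTS-GFP, -0.08 in NES-GFP, 0.14 in GFPm3, 0.18 in SS-GFP, 0.33 in GFP-Deg, 0.55 in GFP and -0.12 in the empty vector. In MTS-GFP all 7 were below their mean, where 55.9% of all genes were. The deviations there were -1.32 for *COX1*, -1.29 for *COB*, -1.22 for *ATP6*, -1.08 for *ATP8*, -0.81 for *OLI1*, -0.80 for *COX2* and -0.59 for *COX3*. The first 4 of these were past 2-fold, where 1.09% of all genes were. The median in MTS-GFP ran between -1.11 and -0.92 over the normalizations, without scaling, and against the mean of the same slide, while those in NES-GFP, SS-GFP and the empty vector changed sign among these settings.

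The *COB* signal was 3054 in MTS-GFP, 8245 in NES-GFP, 8668 in GFPm3, 8173 in SS-GFP, 8800 in GFP-Deg, 9008 in GFP and 6336 in the empty vector. Against the empty vector, *COB* differed by -1.17 in MTS-GFP, *ATP8* by -1.11, *COX1* by -1.07, *ATP6* by -1.0, *COX2* by -0.74, *OLI1* by -0.70 and *COX3* by -0.10. The nuclear median in the same comparison was 0.24 for the bc1 complex, 0.04 for cytochrome c oxidase and 0.08 for ATP synthase. For cytochrome c oxidase and ATP synthase, 3 of 8 and 4 of 13 nuclear genes were below the empty vector under the scaling used. Over the normalizations the lowest ATP synthase difference was -0.05 (*ATP17*), and each of the 13 genes was above the empty vector under at least 1. *COX5A* and *COX8* were below the empty vector under each normalization, and *COX12* only under some. Of the 9 nuclear bc1 genes 8 were above it, while *COB* was below it. In SS-GFP and GFP-Deg, all 7 mitochondria-encoded genes were below GFP, as nearly all nuclear members were, with medians of -0.36 and -0.20.

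**Figure D4:**
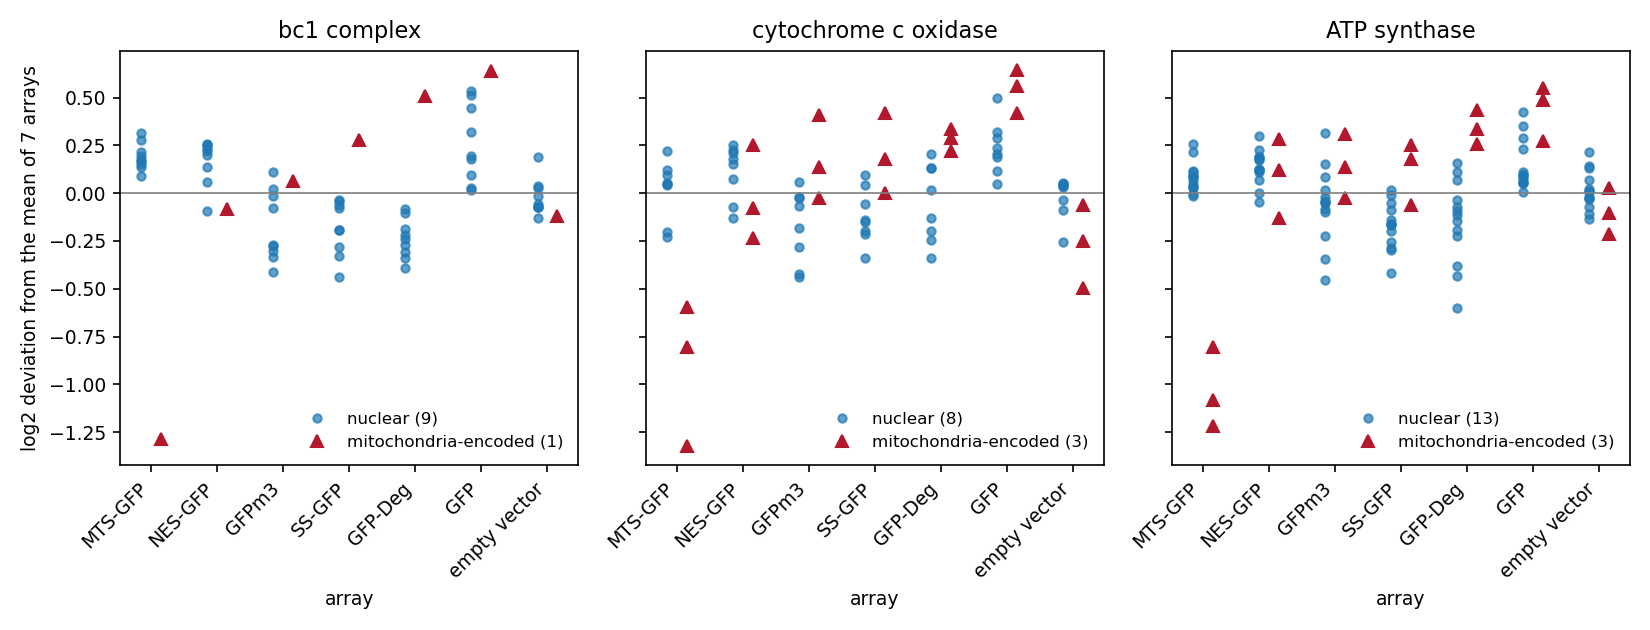
Log2 deviation from the mean of the 7 arrays (y axis) of nuclear (circles) and mitochondria-encoded (triangles) subunits of the bc1 complex, cytochrome c oxidase and ATP synthase on each array (x axis). In MTS-GFP the 7 triangles lie between -1.32 and -0.59, below every circle, and in GFP circles and triangles are all above 0.

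The distance between the highest and the lowest array had a median of 2.0 (log2) over 7 isoforms and paralogs of the members and carriers. It was 0.63 over the members and 0.76 over all genes. *CYC7*, the minor cytochrome c gene that is raised when oxygen is scarce, deviated by 1.15 in MTS-GFP, 0.98 in NES-GFP, -0.44 in GFPm3, -1.24 in SS-GFP, -0.10 in GFP-Deg, 0.05 in GFP and -0.39 in the empty vector. *CYC7* was high where *CYC1* was low in MTS-GFP and NES-GFP, and *CYC1* was high where *CYC7* was low in GFPm3. *COX5B*, the hypoxic form of subunit 5 of cytochrome c oxidase, deviated by 0.63 in MTS-GFP, 0.39 in NES-GFP, -0.61 in GFPm3, -0.15 in SS-GFP, -0.40 in GFP-Deg, 0.37 in GFP and -0.23 in the empty vector. Its differences from the empty vector were 0.87 in MTS-GFP and 0.62 in NES-GFP, against -0.28 and -0.12 for *COX5A*.

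Over the 7 genes, the median deviation was 0.63 in MTS-GFP, 0.36 in NES-GFP, -0.23 in GFPm3, -0.33 in SS-GFP, -0.10 in GFP-Deg, 0.05 in GFP and -0.23 in the empty vector. *SHH3*, a paralog of *SDH3*, reached 1.34 in MTS-GFP, and *YJL045W*, a paralog of *SDH1*, -1.36 in SS-GFP, 1.05 in GFPm3 and 1.13 in GFP-Deg. *AAC3*, the hypoxic ADP/ATP carrier gene, reached 1.24 in GFP-Deg. Its differences from the empty vector were -1.17 in MTS-GFP, -0.86 in NES-GFP and -1.09 in GFPm3. In MTS-GFP and NES-GFP it thus went the opposite way to *CYC7* and *COX5B*. The members themselves stayed within 2-fold of their mean apart from *NDE2*. Whether the probes of paralogs also bind each other's transcripts was not tested.

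Of the carriers that exchange ATP, ADP and phosphate across the inner membrane, the main ADP/ATP carrier *PET9* stayed between -0.21 in SS-GFP and 0.13 in NES-GFP. The phosphate carrier *MIR1* stayed between -0.19 in SS-GFP and 0.18 in GFPm3. *PIC2*, a minor phosphate and copper carrier, reached 0.69 in MTS-GFP and -1.10 in GFPm3.

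Among 8 regulators of respiratory and oxygen-regulated genes, *HAP4* varied most. It encodes the activating subunit of the Hap2/3/4/5 complex and deviated by 0.67 in MTS-GFP, -0.11 in NES-GFP, -0.44 in GFPm3, 0.41 in SS-GFP, 0.08 in GFP-Deg, 0.50 in GFP and -1.11 in the empty vector. On their slide, MTS-GFP, NES-GFP and GFPm3 were above the empty vector by 1.79, 1.0 and 0.67 for *HAP4*. The members' median differences in these comparisons were 0.14, 0.20 and -0.12, in the same order, under the scaling used. The direction in GFPm3 rests on that scaling, and whether the *HAP4* transcript level bears on the members was not tested. *HAP2*, *HAP3* and *HAP5*, the DNA-binding subunits, stayed between -0.24 and 0.38. *HAP1*, the heme-responsive activator of *CYC1*, deviated by 0.42 in MTS-GFP, 0.41 in NES-GFP, -0.05 in GFPm3, 0.05 in SS-GFP, -0.89 in GFP-Deg, -0.37 in GFP and 0.42 in the empty vector. BY4741 is a strain of the S288C background, whose *HAP1* carries a Ty1 insertion near its end. *CYC1* was above its mean in GFP-Deg and GFP, where *HAP1* was below its own. It was below its mean in MTS-GFP, NES-GFP and the empty vector, where *HAP1* was above. These sides follow the slides. From the empty vector *HAP1* differed by -0.0001 in MTS-GFP and -0.018 in NES-GFP. In GFP-Deg both genes were below GFP, *HAP1* by a difference of -0.52 and *CYC1* by -0.28 to -0.25 over the normalizations. Whether the *HAP1* transcript level bears on *CYC1* was not tested.

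Other dehydrogenases feed electrons into the chain at ubiquinone or cytochrome c. *CYB2*, the L-lactate cytochrome c oxidoreductase, deviated by 1.08 in MTS-GFP, 0.40 in NES-GFP, 0.11 in GFPm3, 0.18 in SS-GFP, -0.70 in GFP-Deg, -0.10 in GFP and -0.97 in the empty vector. Like *NDE2*, *CYB2* was highest in MTS-GFP and lowest in the empty vector, and its differences from the empty vector were 2.05 in MTS-GFP, 1.37 in NES-GFP and 1.09 in GFPm3. *GUT2*, the mitochondrial glycerol 3-phosphate dehydrogenase, stood at 0.52 in MTS-GFP and -0.40 in SS-GFP, and *DLD1*, a D-lactate dehydrogenase, at 0.68 in SS-GFP and -0.38 in GFP-Deg.

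The 11 citrate cycle enzymes had a median deviation of 0.31 in MTS-GFP, 0.05 in NES-GFP, -0.31 in GFPm3, 0.02 in SS-GFP, -0.08 in GFP-Deg, 0.25 in GFP and -0.05 in the empty vector. *CIT1*, the mitochondrial citrate synthase, stood at 0.66 in MTS-GFP and *ACO1*, the aconitase, at 0.65 in MTS-GFP and -0.66 in the empty vector. In GFPm3, 10 of the 11 were below their mean, against 45.3% of all genes. *MDH1* and *IDH2* each stood at -0.59 there, and the succinate dehydrogenase genes of the same cycle were all below their means. The 9 ubiquinone synthesis genes had a median of -0.40 in GFPm3, with *COQ5* at -0.54, and between -0.16 and 0.14 in the other 6 arrays. *COQ2* stood at 0.56 in the empty vector and -0.53 in SS-GFP. Under the other normalizations, without scaling, and against the mean of the same slide, the GFPm3 medians ran between -0.40 and -0.17 for ubiquinone synthesis and between -0.33 and -0.08 for the citrate cycle.

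The 8 heme synthesis genes had a median of -0.27 in GFPm3 and 0.22 in SS-GFP. In the same settings, these medians ran between -0.30 and -0.04 in GFPm3, nearest to 0 without scaling, and between 0.06 and 0.23 in SS-GFP, lowest against the mean of the same slide. *HEM15*, the ferrochelatase, stood at -0.56 in GFPm3, and *HEM2* at 0.54 in GFP-Deg.

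The factors that build the complexes were mostly above their means in MTS-GFP. The median deviation in MTS-GFP was 0.30 for 5 succinate dehydrogenase assembly genes, 0.16 for 7 bc1 assembly genes, 0.21 for 20 cytochrome c oxidase assembly genes and 0.25 for 14 ATP synthase assembly and regulation genes. The cytochrome c oxidase factors were above their mean in 18 of 20 cases in MTS-GFP, against 44.1% of all genes. In GFPm3, 5 of 20 were, against 54.7% of all genes. Their median there was -0.18 under the scaling used and 0.05 without scaling. *PET117* stood at 0.71 in MTS-GFP and -0.65 in GFP-Deg, and *COX18*, an insertase for subunit 2, at -0.76 in GFPm3. *SDH5*, which attaches the flavin to Sdh1, stood at 0.70 in MTS-GFP, and *SDH6* at -0.61 in GFPm3. *CBP4* of the bc1 assembly genes stood at 0.60 in MTS-GFP, and *FMP25* at -0.39 in GFP-Deg.

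Of the ATP synthase list, the genes that deviated most were *STF2* (-0.90 in GFPm3 and 0.82 in MTS-GFP) and *STF1* (0.85 in MTS-GFP), which bear on the ATP synthase inhibitor. The inhibitor gene *INH1* itself stood at 0.76 in MTS-GFP and -0.62 in SS-GFP. *INH1*, *STF1* and *STF2* stood between 0.76 and 0.85 in MTS-GFP, where the median of the 13 ATP synthase subunits was 0.08. The translational activators of mitochondrial mRNAs, 9 genes, had medians between -0.17 in GFP-Deg and 0.16 in MTS-GFP. *PET122*, an activator for *COX3*, stood at 0.65 in GFP and -0.55 in GFPm3. *PET111*, an activator for *COX2*, stood at -0.35 in both SS-GFP and GFP-Deg. *PET494*, another activator for *COX3*, stood at 0.34 in MTS-GFP, where *COX3* itself stood at -0.59.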

How the data were processed

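Total RNA of 7 strains, 1 culture and 1 array each, was labelled with Cy3 and hybridized to Agilent yeast arrays by the authors. The deposited values are intensity values per spot from Feature Extraction 10.10.1.1, corrected for background and spatial trend and not scaled between arrays; the series table held the same value for all 45209 spots. The study's methods name the agilp package without its normalization step. Slides were read from the file headers. No reads were aligned, and the array's genome build was not used.

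Spots of controls and outlier spots were dropped, and each log2 value was expressed relative to its array's 75th percentile. Means were taken over the 7 spots of a probe, then over the probes of a name, giving 6225 names, of which 5737 matched a locus tag of the RefSeq table. A gene was well above background where at least 4 spots of each probe were. A change meant more than 2-fold, with 1.5-fold as an alternative. With 1 array per strain no test was run, and members are described beside all genes. Depth has no meaning for intensity, and the number of arrays limits the precision. The members and the 13 lists (111 genes) were chosen with earlier results of these data known. Values on 7 arrays are given for members past 2-fold, and for the 2 widest and the narrowest of each complex, and each list is given with the 2 genes that deviated most. Other genes were named after their values were seen. *MZM1* and *FMP36* are 1 gene and were counted once. The steps were tested on simulated arrays. Alternatives were quantile, loess (span 0.3) and normexp (offset 50) normalization with limma 3.58.1 in R 4.3.3, no scaling, the median of spots, outlier spots kept, and other reference means. Python 3.11.15, numpy 2.4.6 and pandas 2.3.3 were used.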

Additional observations from a re-analysis of the deposited data

How the results depend on the processing

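No paired analysis was possible because each strain was measured on 1 array and the labels carry no replicate numbers, and no replicate could be left out for the same reason. Of 546 values computed under 10 alternative settings for 61 results, 478 moved by no more than the pooled SD between spots (0.11 on the log2 scale; for a count, by no more than 1.5 times) and 68 moved further. A median smaller than that SD could change sign and still count among the 478. Counts that found no member in both settings were among them too, so the 478 overstate stability. The median of spots and keeping outlier spots moved none. The filter on background could move none, because all 38 members passed it, so its 61 values among the 478 say nothing about stability. The values below are on the log2 scale, and the cause of the shifts was not tested beyond the settings' own construction.

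Without scaling between arrays, the median of all genes shifted to 0.27 in NES-GFP, 0.27 in GFPm3 and -0.27 in GFP, and the members moved with it. The member medians became 0.48 in NES-GFP, 0.15 in GFPm3, -0.36 in GFP-Deg and -0.11 in GFP. The medians for NADH dehydrogenases, succinate dehydrogenase, the bc1 complex, *CYC1*, cytochrome c oxidase and ATP synthase became 0.42, 0.58, 0.52, -0.16, 0.47 and 0.43 in NES-GFP. In that order they became 0.28, -0.26, -0.042, 1.07, 0.10 and 0.18 in GFPm3, -0.64, -0.39, -0.44, 0.031, -0.25 and -0.31 in GFP-Deg, and -0.11, -0.10, -0.10, 0.21, -0.072 and -0.20 in GFP. The same-slide member medians became 0.26 in MTS-GFP, 0.54 in NES-GFP and 0.15 in GFPm3 against the empty vector, and -0.12 in SS-GFP against GFP. The number of members past 2-fold became 1 in GFPm3 and 1 in GFP-Deg.

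After loess normalization, the member median became 0.25 in MTS-GFP, and the complex medians there 0.51 for NADH dehydrogenases, 0.60 for succinate dehydrogenase, 0.29 for the bc1 complex and 0.19 for ATP synthase, which became 0.23 in NES-GFP. The same-slide medians against the empty vector became 0.27 in MTS-GFP, 0.32 in NES-GFP and 0.010 in GFPm3. After quantile normalization that of GFPm3 became -0.0033. The succinate dehydrogenase median in GFPm3 became -0.38 after both quantile and normexp normalization, and the number past 2-fold became 0 in the empty vector after both and 0 in NES-GFP after normexp.

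Against the mean of the same slide, *CYC1* stood at -0.53 in MTS-GFP, -0.30 in NES-GFP, 1.0 in GFPm3, -0.29 in SS-GFP, 0.0080 in GFP-Deg, 0.28 in GFP and -0.17 in the empty vector. The NADH dehydrogenases stood at -0.25 in GFPm3, 0.18 in SS-GFP and -0.20 in GFP-Deg, and the bc1 complex at -0.11 in GFP-Deg. The number past 2-fold became 0 in NES-GFP and 1 in GFPm3. Against the mean of the 6 GFP arrays, it became 0 in NES-GFP and 1 in GFP-Deg. At 1.5-fold it was 2 in MTS-GFP, 2 in GFPm3, 2 in GFP-Deg and 1 in GFP.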
